A study of Mus musculus with 15 samples.

Results

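Polycomb repressive complex 2 (PRC2) and its inhibitor Ezhip were examined in 5 mouse embryonic stem (ES) cell lines through every probe set of the array annotated to Ezh1, Ezh2, Eed, Suz12, Jarid2, Mtf2, Phf19 or Ezhip. These 8 genes had 25 probe sets among the 45101 of an Affymetrix mouse expression array, on which sets of short DNA probes read the amount of matching RNA; 18193 genes were represented in all. Each line was measured on 3 arrays, 15 in all. FpB6CBA and FpB6D2 were parthenogenetic lines, made by activating oocytes with no sperm, here oocytes grown in follicles cultured outside the animal. The follicle donors were F1 hybrids, of C57BL6 females and CBA/ca males for FpB6CBA, and of C57BL6 females and DBA2 males for FpB6D2. OpB6D2 was parthenogenetic too, from naturally ovulated oocytes of the same kind of hybrid as FpB6D2. R1 was a purchased fertilised line from a cross between 129S1/SvImJ and 129X1/SvJ mice, and NmB6D2 was a fertilised line from natural mating of C57BL6 females with DBA2 males. A line was 1 derivation, and its 3 arrays are not said to come from separate cultures, so p-values below reflect no more than array-to-array variation within lines. Strain, origin and derivation differ together between several lines and cannot be told apart there. Y-linked expression, given below, split the lines exactly as origin did, so origin and the Y chromosome cannot be told apart either. The median X-linked gene, also given below, did not split the lines in this way.

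PRC2 places methyl groups on lysine K27 of histone H3 (H3K27), a mark found on silenced developmental genes. Ezh2 or its paralog Ezh1 is the methyltransferase, Suz12 is the scaffold, and Eed binds the finished mark and stimulates the enzyme. Mtf2 and Phf19 (Polycomb-like proteins) and Jarid2 are accessory subunits that help bring the complex to its targets in mouse ES cells, while Ezhip, an X-linked gene known from the germ line, encodes a protein that binds Ezh2 and inhibits it.

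The values are on the log2 scale as deposited by the authors, so 1 unit is a 2-fold difference. Probe sets with 3 or more arrays at or over 3.864, which is the median over the whole table, were tested. Probe sets of a gene are numbered from the highest to the lowest mean over the 15 arrays. Of the 25 probe sets, 21 passed, and 4 did not: 2 of the 4 for Ezh1, 1 of the 2 for Eed and 1 of the 6 for Mtf2, whose values ran from 2.70 to 3.42 on the 15 arrays. All 5 pluripotency markers checked (Pou5f1, Sox2, Nanog, Zfp42, Sall4) were above the filter in every line, with averages over the 5 genes of 10.14 in FpB6CBA, 10.86 in FpB6D2, 10.76 in OpB6D2, 11.30 in R1 and 10.35 in NmB6D2. Zfp42 averaged 11.36 in R1 and 8.22 to 9.15 in the other lines, and Sox2 and Sall4 led in R1 by less. Pou5f1 and Nanog were lower in R1 (11.71 and 10.98) than in FpB6D2 (12.01 and 11.39) and OpB6D2 (12.02 and 11.29). Of 3 Y-linked genes on the array, none reached the filter level as a line mean in the 3 parthenogenetic lines and 2 did in R1 and NmB6D2. Y-linked Eif2s3y averaged 2.73 to 3.35 in the parthenogenetic lines, 7.99 in R1 and 8.61 in NmB6D2. Feeder-type fibroblast markers were above the filter for 8 of 9 genes in every line. Their averages were 7.20 in FpB6CBA, 6.84 in FpB6D2, 7.35 in OpB6D2, 7.70 in R1 and 6.75 in NmB6D2. Primitive endoderm markers averaged 6.40 in FpB6CBA, 5.04 in FpB6D2, 5.10 in OpB6D2, 5.86 in R1 and 4.91 in NmB6D2. Trophectoderm markers averaged 7.07 in FpB6CBA, 6.50 in FpB6D2, 5.84 in OpB6D2, 6.89 in R1 and 7.79 in NmB6D2. The part of such cells in the results below was not tested, and in bulk RNA fewer cells of a type and less RNA per cell cannot be told apart.

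Ezhip, Mtf2 and Ezh1 were the members that differed most between the lines, while the core genes Ezh2, Eed and Suz12 varied over a narrower range on nearly all of their probe sets. A probe set was called when the limma test gave an adjusted p under 0.05 and the difference was at least 2-fold. Across the 5 lines (a moderated F test, with the fold taken between the highest and lowest line), 9 of the 21 tested member probe sets were called, against 31.9% of all 24524 probe sets tested. These were 4 of Mtf2, 2 of Ezh1 and 1 each of Ezhip, Suz12 and Jarid2. With 1 probe set per gene, 3 of the 8 genes were called (Ezhip, Mtf2 and Ezh1), a share close to the 32.9% of all genes. Without a fold minimum, 19 of the 21 passed, the exceptions being 2 probe sets of Suz12.

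**Figure D1:**
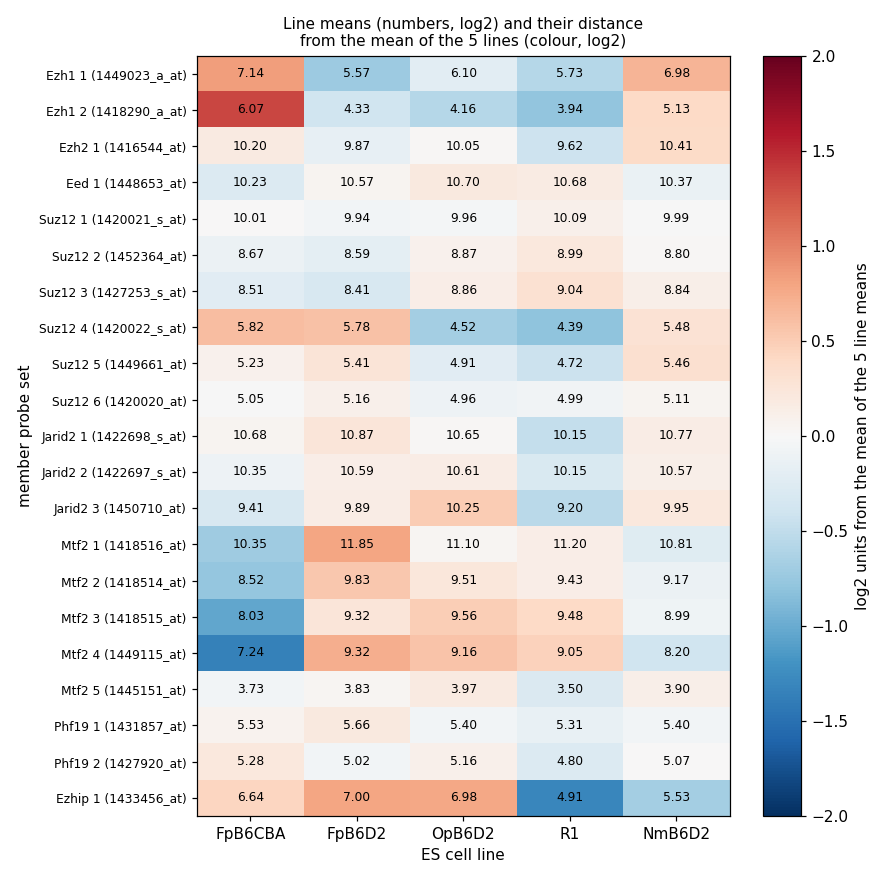
Line means of the 21 tested member probe sets. Columns are the 5 ES cell lines, rows the probe sets; printed numbers are means of 3 arrays on the log2 scale and colour is the distance from the mean of the 5 lines. Ezhip is high in the 3 parthenogenetic lines, 4 Mtf2 probe sets are lowest in FpB6CBA, and both Ezh1 probe sets are highest in FpB6CBA.

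The design's 5 pairs of lines called between 1 and 6 member probe sets each. In OpB6D2 against NmB6D2, 1 of 21 member probe sets was called (Ezhip), against 5.42% of all. In FpB6D2 against NmB6D2, 4 of 21 were called (Ezhip, 2 of Mtf2, 1 of Ezh1), against 10.2%. In FpB6D2 against OpB6D2, 1 of 21 was called (Suz12), against 4.07%. In FpB6CBA against FpB6D2, 6 of 21 were called, against 10.04%; they belonged to 2 genes, 4 to Mtf2 and 2 to Ezh1, and probe sets of 1 gene are not independent. In R1 against NmB6D2, 3 of 21 were called (2 of Ezh1, 1 of Suz12), against 12.7%. The single call of OpB6D2 against NmB6D2 became 2 when any of 5 arrays was left out: OpB6D2 replicate 1 or 4, or NmB6D2 replicate 2, 3 or 4. The added probe set was either Ezh1 probe set 2 or Suz12 probe set 4, which lay just below the 2-fold limit with all arrays, both at a log2 difference of -0.97.

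Ezhip, the inhibitor, is shown first with the promoters that help place it. The windows are 300 bases around the annotated start, most of them upstream of it (RefSeq, GRCm38.p6). Capitals mark the CCAAT box (CCAAT), the GC box (GGGCGG) and an E2F-type site (TTTGGCGC), each read on both strands. The letters of different motifs did not overlap in these windows. Ezhip lies on the minus strand at chrX:6083371-6083670, Ezh2 on the minus strand at chr6:47594981-47595280, and Mtf2 on the plus strand at chr5:108065424-108065723.
Ezhip: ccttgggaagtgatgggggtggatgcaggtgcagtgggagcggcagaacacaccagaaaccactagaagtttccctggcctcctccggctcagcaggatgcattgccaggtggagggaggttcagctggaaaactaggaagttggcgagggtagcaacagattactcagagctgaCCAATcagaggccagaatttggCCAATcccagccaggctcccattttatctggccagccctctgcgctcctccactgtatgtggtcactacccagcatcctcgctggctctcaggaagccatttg
Ezh2: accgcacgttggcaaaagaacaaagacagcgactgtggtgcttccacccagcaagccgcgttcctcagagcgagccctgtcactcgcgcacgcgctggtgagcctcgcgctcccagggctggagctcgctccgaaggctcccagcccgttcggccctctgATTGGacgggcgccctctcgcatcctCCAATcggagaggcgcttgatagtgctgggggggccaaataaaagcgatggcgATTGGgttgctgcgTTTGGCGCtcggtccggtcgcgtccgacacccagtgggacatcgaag
Mtf2: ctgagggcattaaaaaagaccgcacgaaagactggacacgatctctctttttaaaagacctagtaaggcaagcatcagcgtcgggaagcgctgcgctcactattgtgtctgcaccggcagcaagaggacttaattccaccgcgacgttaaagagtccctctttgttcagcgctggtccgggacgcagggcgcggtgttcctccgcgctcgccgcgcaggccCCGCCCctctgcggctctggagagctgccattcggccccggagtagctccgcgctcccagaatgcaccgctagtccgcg
The Ezhip window held 5 CpG dinucleotides, against 31 for Ezh2 and 30 for this Mtf2 start, and a median of 7 over 32851 promoters. Windows of the other 5 genes held 17 to 41, and a second annotated Mtf2 start held 2. A CCAAT box occurred in 37.4% of all promoters and, among the members, in those of Ezhip, Ezh2, Eed, Suz12, both starts of Jarid2 and the second start of Mtf2. A GC box occurred in 35.7% of all and in those of Suz12, both starts of Jarid2, the printed start of Mtf2 and Phf19. The E2F-type letters TTTGGCGC occurred in 0.514% of all promoters and in that of Ezh2, and the related TTTCCCGC, in 1.07% of all, in those of Suz12 and Phf19. A TATA box (TATAAA, 13.6%), a CRE (TGACGTCA, 1.79%), an E-box (CACGTG, 7.15%) and an ETS core (CCGGAAGT, 3.89%) were absent from all 3 printed windows. A match here is a description of letters only.

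Ezhip was higher in all 3 parthenogenetic lines than in both fertilised lines. Its only probe set read 6.66, 6.68 and 6.57 in FpB6CBA, and 7.16, 6.95 and 6.90 in FpB6D2. It read 7.03, 6.95 and 6.96 in OpB6D2, and 4.83, 4.93 and 4.96 in R1, against 5.44, 5.53 and 5.62 in NmB6D2. Every parthenogenetic array lay above every fertilised array, and the gap between the nearest arrays was wider than the spread within any line. In OpB6D2 Ezhip was 2.73-fold higher than in NmB6D2 (log2 difference 1.45, SE 0.07, limma adjusted p = 2.87e-09), and in FpB6D2 it was 2.78-fold higher (1.48, SE 0.07, adjusted p = 1.24e-09). In FpB6CBA it was 2.15-fold higher than in NmB6D2 (1.11, SE 0.07, adjusted p = 6.39e-08). Against R1, whose cells come from another strain cross, the log2 differences were 1.73 in FpB6CBA, 2.10 in FpB6D2 and 2.07 in OpB6D2. The order from high to low was FpB6D2, OpB6D2, FpB6CBA, NmB6D2 and R1. Only the first pair of neighbours did not differ beyond the spread between arrays (adjusted p = 0.814), and R1 was below NmB6D2 by a log2 difference of -0.62 (adjusted p = 5.6e-06). The 6 germ line markers (Dazl, Ddx4, Mael, Tex101, Sycp3, Stra8) were also higher on average in the parthenogenetic lines, at 7.81 in FpB6CBA, 6.92 in FpB6D2 and 7.09 in OpB6D2, against 5.83 in R1 and 6.52 in NmB6D2. All 6 were above the filter in the 3 parthenogenetic lines and 5 in each fertilised line, where Tex101 averaged 3.58 in R1 and 3.67 in NmB6D2. Dazl, singled out after its values were seen, was the 1 gene of the list that had every parthenogenetic line mean above both fertilised ones by over 1 log2 unit: it averaged 9.44 in FpB6CBA, 9.54 in FpB6D2 and 9.70 in OpB6D2, against 8.34 in R1 and 6.50 in NmB6D2. Mael and Tex101 also had every parthenogenetic line mean above both fertilised ones, while Ddx4, Sycp3 and Stra8 did not. Ddx4 averaged 7.43 in NmB6D2 and 6.02 in OpB6D2, and Sycp3 6.95 in R1 and 5.58 in OpB6D2. Stra8 averaged 7.55 in NmB6D2 and 7.32 in FpB6D2. The part of germ line expression in the Ezhip differences was not tested.

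**Figure D2:**
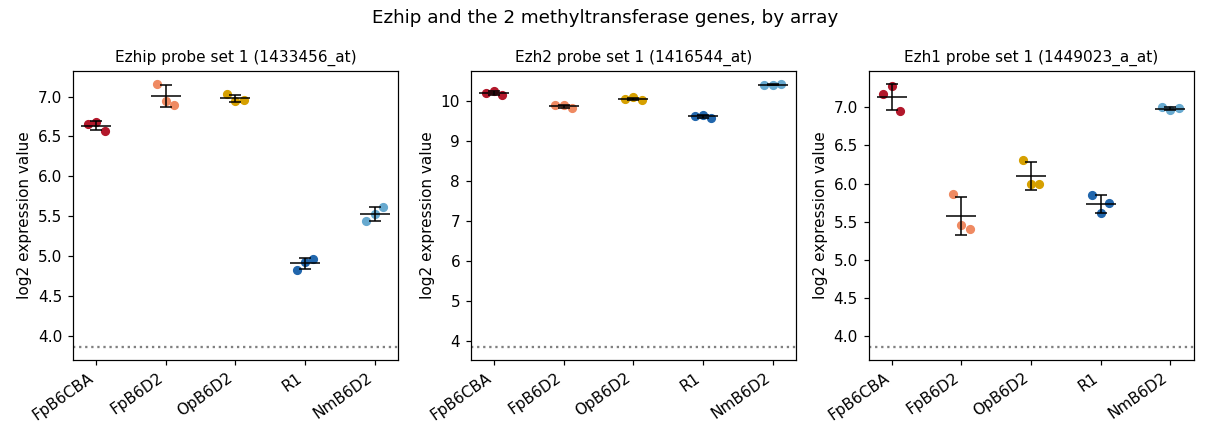
Ezhip, Ezh2 and Ezh1 on each array. The horizontal axis gives the 5 lines and the vertical axis the log2 expression value; points are arrays, dashes and bars the mean and SD of 3 arrays, and the dotted line is the filter of 3.864. Ezhip runs from 6.57 to 7.16 in the parthenogenetic lines and from 4.83 to 5.62 in the fertilised lines, while the order of the lines differs for Ezh2 and Ezh1.

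Ezhip is X-linked, and its differences were set beside those of the 414 tested X-linked genes. The median X-linked gene differed by 0.50 on the log2 scale in OpB6D2 against NmB6D2, and by 0.44 in FpB6D2 against NmB6D2. In FpB6CBA against NmB6D2 it differed by -0.01, and in R1 against NmB6D2 by 0.04. Autosomal medians lay between -0.04 and 0.02 in the same 4 comparisons. The Ezhip difference of FpB6CBA against NmB6D2 was 1.11, beside the X-linked median of -0.01. The part of the X-linked shift in the Ezhip differences was not tested. Counting Ezhip itself, 24 of 414 X-linked genes (5.80%) were at least as far above NmB6D2 as Ezhip in OpB6D2, 43 (10.4%) in FpB6D2 and 13 (3.14%) in FpB6CBA. Between FpB6CBA and FpB6D2, Ezhip differed by -0.37 (adjusted p = 0.000743), near the X-linked median of -0.47.

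**Figure D3:**
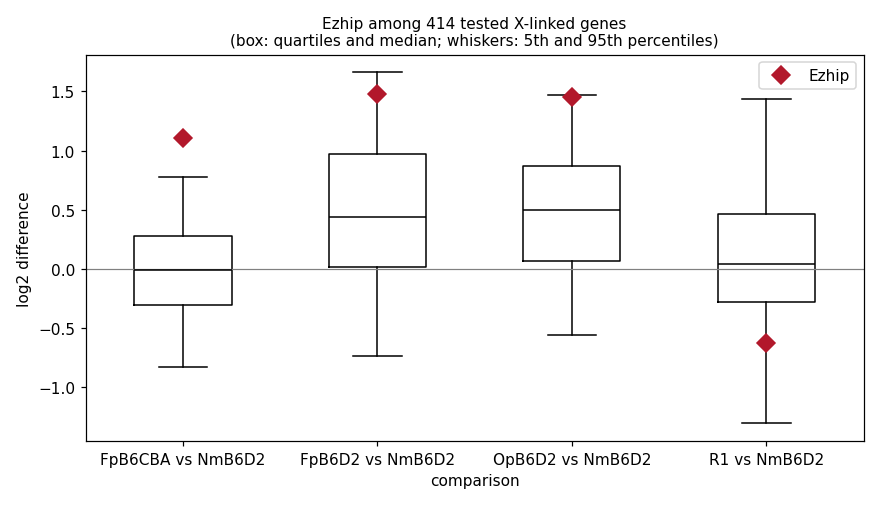
Ezhip among the 414 tested X-linked genes. The vertical axis is the log2 difference, and each box shows the quartiles and median of X-linked genes for 1 comparison with NmB6D2, with whiskers at the 5th and 95th percentiles; diamonds are Ezhip. The diamond is at 1.11 for FpB6CBA, where the X-linked median is -0.01, and at 1.48 and 1.45 for FpB6D2 and OpB6D2, where the medians are 0.44 and 0.50.

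With the 5 line means as replicates of the mode of origin, Ezhip averaged 6.87 in the 3 parthenogenetic lines and 5.22 in the 2 fertilised lines, a log2 difference of 1.66 (SE 0.26). An exact two-sided permutation test over the 10 ways of choosing 3 of 5 lines gave p = 0.1, the smallest it can give. The limma fit on line means gave an unadjusted p of 0.00118 and an adjusted p of 0.939. This fit called 0 of 24524 probe sets, 0% of those tested, and 1090 (4.44%) had an unadjusted p under 0.05. Of the 21 member probe sets, 1 (Ezhip) was among them, a share near that over all probe sets. Ezh2 averaged 10.04 in the parthenogenetic lines and 10.01 in the fertilised lines (log2 difference 0.03, SE 0.28, adjusted p = 0.993).

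Mtf2, a Polycomb-like subunit that binds CpG-rich DNA, was lowest in FpB6CBA on 4 of its 5 tested probe sets. Probe set 1 read 10.36, 10.40 and 10.29 in FpB6CBA, and 11.92, 11.87 and 11.77 in FpB6D2. It read 11.09, 11.11 and 11.09 in OpB6D2, and 11.24, 11.09 and 11.26 in R1, against 10.81, 10.84 and 10.79 in NmB6D2. FpB6CBA was below all other lines and FpB6D2 above all, with no overlap of arrays. Probe set 4 read 7.26, 7.33 and 7.14 in FpB6CBA, and 9.32, 9.29 and 9.34 in FpB6D2. It read 9.21, 9.13 and 9.15 in OpB6D2, and 9.06, 8.96 and 9.12 in R1, against 8.25, 8.19 and 8.15 in NmB6D2. Here too FpB6CBA was lowest, NmB6D2 came next, and the other 3 lines lay close together.

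In FpB6CBA, relative to FpB6D2, all 4 of these Mtf2 probe sets fell. The log2 differences were -1.50 (SE 0.06) for probe set 1, -1.31 for probe set 2, -1.29 for probe set 3 and -2.08 for probe set 4, which is 4.22-fold. Across the 5 lines the F test gave these 4 probe sets adjusted p-values between 7.28e-12 and 7.53e-08. FpB6D2 was higher than NmB6D2 by 1.04 on probe set 1 and by 1.12 on probe set 4, and both were called. On probe sets 2 and 3 it was higher by 0.66 and 0.33, which did not reach 2-fold. The 4 probe sets agreed that FpB6CBA was lowest and NmB6D2 next, but not on the top line: FpB6D2 was highest on 3 of them and OpB6D2 on probe set 3, where its lead over R1 did not exceed the spread (adjusted p = 0.365). The remaining tested probe set, number 5, stayed between 3.34 and 4.13, around the filter level.

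**Figure D4:**
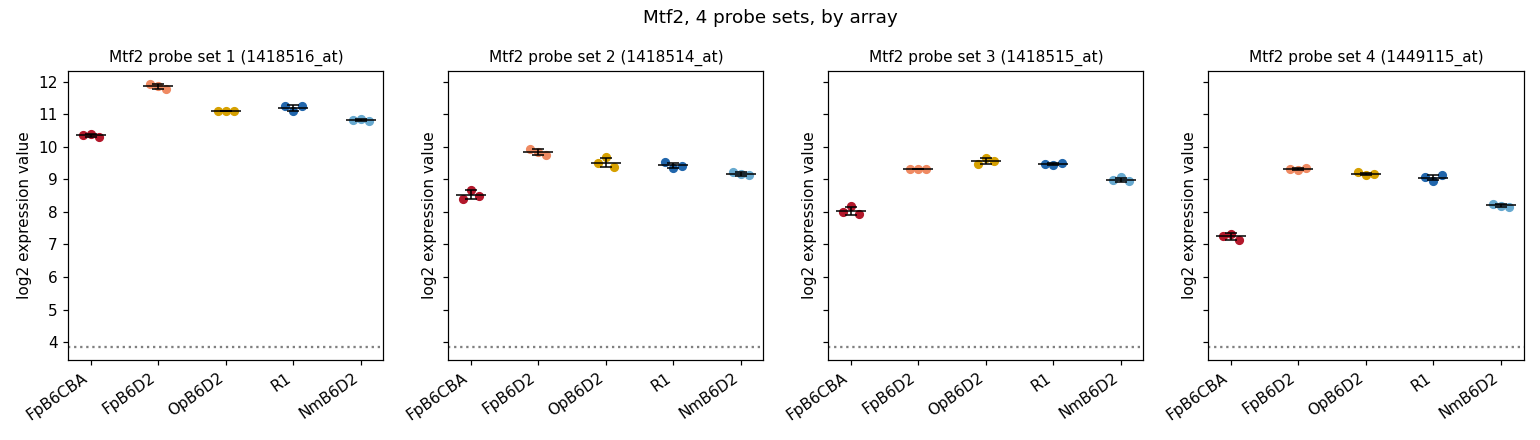
Mtf2 on 4 probe sets. The horizontal axis gives the 5 lines and the vertical axis, shared by the panels, the log2 expression value; points are arrays, dashes and bars the mean and SD of 3 arrays, and the dotted line is the filter of 3.864. FpB6CBA is lowest in all 4 panels and NmB6D2 second lowest.

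The methyltransferase genes Ezh1 and Ezh2 ordered the lines differently. Ezh1, found mainly in non-dividing cells, read 7.18, 7.28 and 6.95 in FpB6CBA on probe set 1, and 5.86, 5.46 and 5.40 in FpB6D2. It ran from 5.99 to 6.31 in OpB6D2 and read 5.85, 5.61 and 5.74 in R1, against 7.00, 6.96 and 6.99 in NmB6D2. FpB6CBA and NmB6D2 overlapped at the top (adjusted p = 0.341 for their difference), and FpB6D2 and R1 overlapped at the bottom (adjusted p = 0.273). Ezh1 was 2.95-fold higher in FpB6CBA than in FpB6D2 (log2 difference 1.56, SE 0.12, adjusted p = 1.03e-07). It fell in FpB6D2 and in R1 relative to NmB6D2, by log2 differences of -1.41 and -1.25. On probe set 2, FpB6CBA was again highest, with 6.15, 6.37 and 5.69, against 4.65, 4.22 and 4.12 in FpB6D2 (log2 difference 1.74). There the fall in FpB6D2 relative to NmB6D2 was -0.80 and did not reach 2-fold, while that in R1 was -1.19 and was called.

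Ezh2, the main methyltransferase of dividing cells, read 10.19, 10.26 and 10.16 in FpB6CBA, and 9.89, 9.89 and 9.82 in FpB6D2. It read 10.04, 10.09 and 10.03 in OpB6D2, and 9.62, 9.66 and 9.58 in R1, against 10.40, 10.41 and 10.43 in NmB6D2. The lines did not overlap, and every neighbouring pair in the order NmB6D2, FpB6CBA, OpB6D2, FpB6D2 and R1 differed beyond the spread between arrays. The whole range was 0.79 on the log2 scale, or 1.73-fold, so no difference was called. In R1 the level was lower than in NmB6D2 by -0.79 (SE 0.05, adjusted p = 1.11e-08).

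Eed and Suz12, the other core genes, varied little. Eed read 10.19, 10.32 and 10.19 in FpB6CBA and 10.57, 10.56 and 10.59 in FpB6D2. It read 10.68, 10.68 and 10.74 in OpB6D2 and 10.73, 10.63 and 10.68 in R1, against 10.45, 10.35 and 10.32 in NmB6D2. OpB6D2 and R1 overlapped at the top, and the full range was 0.46 on the log2 scale (1.38-fold). Suz12 was read by 6 probe sets that fell into 3 with values of 8.29 to 10.14 and 3 with values of 4.12 to 6.15. Of the first 3, probe set 1 did not pass the test across the lines (range 0.15, F test adjusted p = 0.505), and the other 2 were highest in R1 and lowest in FpB6D2, with ranges of 0.40 and 0.63. Probe set 4, of the second kind, ran the other way: R1 was lowest, with 4.74, 4.32 and 4.12. FpB6D2 read 5.78, 5.72 and 5.84, against 4.49, 4.62 and 4.44 in OpB6D2, a log2 difference of 1.26 (adjusted p = 1.62e-05). R1 was lower than NmB6D2 by -1.09 on this probe set, and without R1 replicate 5 by -0.95, no longer 2-fold. The probe sets of Suz12 thus disagreed on the order of the lines.

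Jarid2, which helps PRC2 bind and stimulates it, was lowest in R1 on all 3 of its probe sets. On probe set 3 the line means were 9.41 in FpB6CBA, 9.89 in FpB6D2, 10.25 in OpB6D2 and 9.20 in R1, against 9.95 in NmB6D2. The range between OpB6D2 and R1, 1.05 on the log2 scale or 2.07-fold, was called across the 5 lines (F test adjusted p = 1.2e-08). R1 was lower than NmB6D2 by -0.76 on this probe set, by -0.61 on probe set 1 and by -0.42 on probe set 2, all with adjusted p under 0.05 and none 2-fold. Phf19, a second Polycomb-like subunit, read 4.73 to 5.72 over its 2 probe sets and 15 arrays, with ranges between line means of 0.34 and 0.48.

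Of 7 further PRC2 subunit genes, 3 were called across the 5 lines (Aebp2, Epop and Lcorl), against 32.9% of all genes. In the same 5 pairs of lines as above, Epop and Lcorl were called, both in FpB6CBA against FpB6D2; the other 5 pairs were not counted for this or the following lists. Epop, an accessory protein known from ES cells, averaged 8.25 in FpB6CBA and 9.51 in FpB6D2, a log2 difference of -1.26 (adjusted p = 9.23e-09). Lcorl averaged 4.39 in FpB6CBA and 3.14 in FpB6D2, the second below the filter level, and was at least 1.44-fold higher when set against that level. Lcorl passed the filter only with the FpB6CBA arrays, so a higher value in FpB6CBA was given by the filter. This holds for its call across the lines too. For all genes in this comparison, 6.03% were called higher and 5.14% lower. Aebp2, which joins complexes with Jarid2, averaged 8.77 in FpB6CBA, 9.71 in FpB6D2, 9.35 in OpB6D2, 8.47 in R1 and 8.88 in NmB6D2, a range of 1.24. The histone-binding subunits varied little, with ranges of 0.13 for Rbbp4 and 0.25 for Rbbp7. Ranges were 0.73 for Phf1, the third Polycomb-like gene, and 0.87 for Lcor.

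Of 22 tested genes of PRC1, the complex that ubiquitinates H2A, 7 were called across the 5 lines, against 32.9% of all genes. In the pairs, 1 was higher and 1 lower in OpB6D2 against NmB6D2, where 3.24% of all genes were higher and 2.60% lower. Bmi1 averaged 7.16 in OpB6D2 and 5.92 in NmB6D2, and Pcgf5 averaged 8.13 in OpB6D2 and 9.30 in NmB6D2. Phc3 was the only PRC1 gene called in FpB6D2, at 4.08, against 5.23 in NmB6D2 and 5.17 in OpB6D2. The shares of all genes called were 5.22% higher and 5.53% lower in FpB6D2 against NmB6D2, and 1.31% higher and 2.44% lower in FpB6D2 against OpB6D2. Pcgf5 was the only one called in FpB6CBA against FpB6D2, averaging 9.66 in FpB6CBA and 8.36 in FpB6D2. In that pair 6.03% of all genes were higher and 5.14% lower. In R1, Scmh1 and Pcgf5 were lower than in NmB6D2, Scmh1 by 3.70-fold (4.33 in R1, 6.21 in NmB6D2). These were 2 of the 22, where 5.49% of all genes were lower, and none was higher, against 7.39%.

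Of 6 tested genes of the H3K27 demethylases and the H2AK119 deubiquitinase, 4 were called across the lines, against the same 32.9%. In the pairs, 1 was higher in FpB6D2 than in OpB6D2 (1.31% of all genes), 1 higher and 1 lower in FpB6CBA than in FpB6D2 (6.03% and 5.14%), and 1 lower in FpB6D2 than in NmB6D2 (5.53%). The demethylase Kdm6b averaged 9.50 in FpB6D2 and 8.40 in OpB6D2. The X-linked demethylase Kdm6a averaged 7.21 in FpB6CBA and 8.33 in FpB6D2. This was a log2 difference of -1.12, beside -0.47 for the median X-linked gene, and the part of the X-linked shift in it was not tested. The deubiquitinase subunit Asxl1 averaged 8.27 in FpB6CBA and 7.06 in FpB6D2. Y-linked Uty averaged 3.11 in FpB6D2 and 4.12 in NmB6D2, where at least 1.19-fold is the bound set by the filter. Kdm6a without FpB6CBA replicate 1 differed by -0.97, and Uty without FpB6D2 replicate 1 or 3 or NmB6D2 replicate 2 by -0.96, -0.91 and -0.96, all under the 2-fold limit. Among 12 tested genes of the COMPASS and Trithorax complexes, which methylate H3K4, 3 were called across the lines, against 32.9% of all genes. Setd1b averaged 5.17 in FpB6CBA and 7.53 in FpB6D2, a 5.13-fold fall. It was the only gene of this list called in that pair, where 5.14% of all genes were lower. Setd1b was also higher in FpB6D2 (7.53) and in R1 (7.12) than in NmB6D2 (5.98), and Kmt2d was lower in FpB6D2 (5.99) than in NmB6D2 (7.45). These were 1 call higher and 1 lower in FpB6D2 against NmB6D2, where 5.22% of all genes were higher and 5.53% lower, and 1 higher in R1 against NmB6D2, where 7.39% of all were higher.

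A list of 50 developmental regulators known as PRC2 targets in mouse ES cells had 46 genes on the array, of which 32 passed the filter, so what follows leaves out 14 genes. Of these, 13 were below the filter level as a mean in every line, and En1 averaged 4.05 in R1 and 2.49 in NmB6D2. In R1 against NmB6D2, 13 of the 32 were called higher and 1 lower, where 7.39% of all genes were higher and 5.49% lower. Bmp2 and Hoxb1 entered the 32 only through the R1 arrays, so that a higher value in R1 was given by the filter, and 11 of the 13 did not. The median difference was 0.19 for the list and -0.04 for all genes. The 4 largest differences were in Msx2, Bmp2, Hoxb2 and Evx1. The homeobox gene Msx2 averaged 9.13 in R1 and 5.31 in NmB6D2, a 14.1-fold difference. The ligand Bmp2 averaged 6.95 in R1 and 2.58 in NmB6D2, Hoxb2 averaged 7.57 in R1 and 3.73 in NmB6D2, and Evx1 averaged 7.20 in R1 and 3.48 in NmB6D2. The NmB6D2 means of these 3 were below the filter level, and set against that level Bmp2 was at least 8.48-fold and Evx1 at least 10.1-fold higher. R1 was also the line with the lowest Ezh2, Jarid2 and Ezhip values, of which Ezhip encodes an inhibitor. Ezh1 was lower in R1 than in NmB6D2, by -1.25 on probe set 1 and by -1.19 on probe set 2. Both Phf19 probe sets had their lowest line mean in R1, but R1 did not differ from the next line beyond the spread between arrays. Suz12 was highest in R1 on probe sets 1, 2 and 3 (10.09, 8.99 and 9.04) and lowest on probe sets 4 and 5. The leads on probe sets 1 and 2 did not exceed the spread. Eed averaged 10.68 in R1 and 10.37 in NmB6D2. Mtf2 probe sets 1 to 4 were higher in R1 than in NmB6D2, by 0.26 to 0.85. Pluripotency and fibroblast averages were highest in R1, and of the pluripotency genes Zfp42 had the widest lead. Primitive endoderm markers averaged 5.86 in R1 and 4.91 in NmB6D2, and trophectoderm markers 6.89 in R1 and 7.79 in NmB6D2. Among the endoderm markers, Dab2 (5.82 in R1, 7.02 in NmB6D2) and Sox7 (3.59 in R1, 4.45 in NmB6D2) were lower in R1. Of the 13 genes higher in R1, 4 are in those marker lists. Gata4 averaged 7.40 in R1 and 4.51 in NmB6D2, and Sox17 averaged 6.21 in R1 and 4.27 in NmB6D2. Foxa2 averaged 4.72 in R1 and 3.50 in NmB6D2, the second below the filter level. Eomes averaged 10.08 in R1 and 7.49 in NmB6D2. The relation among these member levels, markers and target genes was not tested.

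FpB6CBA had 4 of the 32 higher and 4 lower than FpB6D2, where 6.03% of all genes were higher and 5.14% lower. All 4 higher genes (Gata4, Gata6, Foxa2 and Sox17) are also in the primitive endoderm marker list, which averaged 6.40 in FpB6CBA and 5.04 in FpB6D2. Sox7 of that list went the other way, at 5.18 in FpB6CBA and 6.58 in FpB6D2. The relation of the genes to the marker list was not tested. Foxa2 averaged 5.49 in FpB6CBA and 3.59 in FpB6D2, the second below the filter level, and was at least 3.08-fold higher against that level. Sox17 averaged 6.31 in FpB6CBA and 4.52 in FpB6D2. Foxd3, a forkhead factor known from pluripotent and neural crest cells, averaged 4.66 in FpB6CBA and 7.44 in FpB6D2, and Olig2 averaged 4.28 in FpB6CBA and 6.40 in FpB6D2. FpB6D2 had 2 of the 32 higher than NmB6D2 and none lower, where 5.22% of all genes were higher and 5.53% lower. These were Foxd3 (7.44 in FpB6D2, 5.62 in NmB6D2) and Sox1 (4.15 in FpB6D2, 3.04 in NmB6D2). The NmB6D2 mean of Sox1 was below the filter level, and against that level Sox1 was at least 1.22-fold higher in FpB6D2. Without FpB6D2 replicate 1 Sox1 differed by 0.98, under the 2-fold limit. OpB6D2 had 1 higher than NmB6D2 and none lower, where 3.24% of all genes were higher and 2.60% lower. This was Sox1, at 4.80 in OpB6D2, which passed the filter only with the OpB6D2 arrays. Against the filter level it was at least 1.91-fold higher. FpB6D2 had 2 lower than OpB6D2 and none higher, where 2.44% of all genes were lower and 1.31% higher. The 2 were Gata6 and Cdkn2a, which averaged 5.12 and 5.02 in FpB6D2, against 6.26 and 6.26 in OpB6D2.

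Genes with the most similar pattern were sought by Pearson's r over the 15 arrays, among the 4211 genes called across the 5 lines. The arrays share only 5 lines, so r mainly reflects the order and size of 5 line means and is given as a description. Nearest to Ezhip were Fez1 (r = 0.991), Kyat3 (0.991) and X-linked Pnma5 (0.984). Fez1 averaged 7.50 in FpB6CBA, 7.94 in FpB6D2, 8.21 in OpB6D2 and 5.22 in R1, against 6.09 in NmB6D2. Nearest to Mtf2 probe set 4 were Smarcad1 (0.995), Irf3 (0.987) and Zfp936 (0.985), and to probe set 3 Ppat (0.992), Peg3 (0.987) and Ppp1r18 (0.984). Peg3, a paternally expressed imprinted gene, averaged 5.19 in FpB6CBA, 9.56 in FpB6D2, 10.23 in OpB6D2 and 10.21 in R1, against 8.87 in NmB6D2. The other Mtf2 probe sets had Dcaf12l1 (0.980) and Foxm1 (0.980) first. Nearest to Ezh1 were Sema4g (0.986) for probe set 1 and Arhgap45 (0.981) for probe set 2, and nearest to Jarid2 probe set 3 was Nudt4 (0.987). Suz12 probe set 4 was closest to Spata24 (0.956).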

How the data were processed

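Total RNA of 5 ES cell lines was hybridised to Affymetrix mouse expression arrays, 3 per line. The deposited values are log2 expression values per probe set; the submitters' processing notes name RMA and affy without versions. The log base was inferred from the values (1.99 to 13.96). Probe sets were named from the array annotation, updated through GRCm38.p6. Members and lists were chosen with earlier results of these data known. Nothing was renormalised. One limma 3.58.1 fit (R 4.3.3) over 15 arrays had a mean per line; p was adjusted by Benjamini-Hochberg over 24524 probe sets, or within the fit on 5 line means. Genes of lists are represented by their brightest probe set with 1 symbol. Named genes are all member probe sets, up to 4 called genes per list and comparison by size, every further PRC2 subunit, and the 3 genes most like each called member. Alternatives were filters, probe set choice, normalisation, variance models, array weights, thresholds, arrays left out and a block on the replicate number. In simulated data of 24524 probe sets, 100 of 100 changed by 1.5 log2 units were recovered between OpB6D2 and NmB6D2; the line-mean fit recovered 28 of 100. The number of arrays limits precision. Plots used matplotlib 3.10.9.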

Additional observations from a re-analysis of the deposited data

How the results depend on the processing

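Member counts are of probe sets unless said. None of the 19 called member differences, the 52 member differences that passed the test under 2-fold and the 44 called differences of list genes reversed under the alternatives run on them; 8 of the 44 fell under the 2-fold limit in at least 1 alternative (Gata3, Kdm6a, Kdm6b, Phc3, Sox1, Uty and Wnt6, with Sox1 in 2 pairs). With 1 probe set per gene the counts were 3 genes across the 5 lines, 0 in FpB6D2 vs OpB6D2, 2 in FpB6CBA vs FpB6D2 and 1 in R1 vs NmB6D2. With probe sets of a gene averaged they were 2 genes across the lines (Mtf2 and Ezhip), 1 in FpB6D2 vs NmB6D2, 0 in FpB6D2 vs OpB6D2, 1 in FpB6CBA vs FpB6D2 and 0 in R1 vs NmB6D2; averaging includes probe sets at low values. Without member probe sets of suffix s_at, FpB6D2 vs OpB6D2 had 0. With median centring, OpB6D2 vs NmB6D2 had 3; centring removed a shift of 0.05 there and of at most 0.10 in size in any pair. With no fold minimum the counts were 19 across the lines, 12 in each of OpB6D2 vs NmB6D2, FpB6D2 vs NmB6D2 and FpB6D2 vs OpB6D2, 13 in FpB6CBA vs FpB6D2 and 18 in R1 vs NmB6D2. Leaving out an array gave 1 to 2 in OpB6D2 vs NmB6D2. A replicate block on the title number (13 numbered arrays) gave 9, 1, 4, 1, 6 and 3 in the order of the report's comparisons; Mtf2 probe set 1 in FpB6D2 vs NmB6D2 then differed by 0.99, and Ezh1 probe set 2 was called in its place. Same-numbered arrays of different lines did not deviate together (r from -0.19 to 0.12 over 12 pairs), so the numbers were not taken to pair samples.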

Other observations

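The tested genes next to 3 members on their chromosomes were read as well; they were chosen after the members' values were seen, and their part in the members' differences was not tested. Beside Ezh1 on chromosome 11, Plekhh3 averaged 7.20 in FpB6CBA, 5.66 in FpB6D2, 5.61 in OpB6D2 and 5.95 in R1, against 6.67 in NmB6D2. Ramp2, on the other side, averaged 5.38 in FpB6CBA, 4.43 in FpB6D2, 4.96 in OpB6D2 and 4.91 in R1, against 5.46 in NmB6D2. For both genes, as for Ezh1, FpB6CBA and NmB6D2 held the highest pair of line means, and for the other 4 of the 6 nearest tested genes they did not. Ccr10, which lies between Plekhh3 and Ezh1, had a range of 0.36 between line means. Beside Mtf2 on chromosome 5, Dr1 was lowest in FpB6CBA too, at 6.36, with 7.16 in FpB6D2, as was Tmed5, at 6.94, with 7.18 in FpB6D2, while Rpap2 was highest in FpB6CBA, at 7.69, with 6.85 in FpB6D2. Dipk1a and Tmed5, the nearest tested genes on each side of Mtf2, had ranges of 0.70 and 0.70. Shroom4, the nearest tested gene after Ezhip on the X chromosome, averaged 6.75 in FpB6CBA, 6.08 in FpB6D2, 6.94 in OpB6D2 and 6.62 in R1, against 6.90 in NmB6D2. Its parthenogenetic and fertilised line means overlapped. Dgkk, the next tested gene, averaged 3.43 in FpB6CBA, 3.46 in FpB6D2, 3.54 in OpB6D2 and 5.01 in R1, against 3.17 in NmB6D2. Only the R1 mean was above the filter level. Akap4, after Dgkk, averaged 3.61 in FpB6CBA, 3.96 in FpB6D2, 3.59 in OpB6D2 and 3.90 in R1, against 3.61 in NmB6D2. Tmlhe and Vamp7, also annotated to the X chromosome, had every parthenogenetic line mean above both fertilised ones. The position of these genes relative to Ezhip was not established. Tmlhe averaged 5.99 in FpB6CBA, 5.89 in FpB6D2, 5.46 in OpB6D2 and 4.80 in R1, against 5.06 in NmB6D2. Vamp7 averaged 6.54 in FpB6CBA, 7.72 in FpB6D2, 7.54 in OpB6D2 and 6.36 in R1, against 6.38 in NmB6D2.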
